A study of Mus musculus with 8 samples.

Results

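H3K9ac was compared between BM of vehicle-treated and curcumin-treated GFI1-36N, NUP98-HOXD13-tg mice, with 1 library each. The pair was taken from the sample labels, which give GFI1-36N marrow without and with curcumin, and comprises 2 of the 8 samples of the series and 2 of the 6 that have a list of H3K9ac peaks. Both groups carry the Nup98-HOXD13 transgene on a C57BL/6 background and the GFI1-36N allele, a human GFI1 cDNA with asparagine in place of serine at position 36 that was placed in the murine Gfi1 locus. Curcumin was injected into the peritoneum every week at 20 mg/kg, and control mice received the solvent DMSO. Chromatin of frozen whole BM cells was precipitated with an antibody against histone H3 acetylated at lysine 9. The names of the deposited lists give a heterozygous animal for the vehicle library and a homozygous animal for the curcumin library. The labels do not give the zygosity, so treatment and allele dose cannot be told apart in any result that follows. The number, age and sex of the mice behind each library are not given in the sources used here. Each group was 1 library, so none of the differences could be set against replicates, no p-value is given, and every interval covers counting error only.

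Acetylation of lysine 9 of histone H3 marks the promoters and enhancers of active genes, and broad stretches of the mark often lie over highly active, cell type-specific genes. GFI1 is a zinc finger repressor of transcription that acts in the differentiation of stem cells into myeloid and lymphoid cells. It lowers acetylation at its targets by recruiting histone deacetylases and the demethylase LSD1. Curcumin is a plant polyphenol that has been described as an inhibitor of histone acetyltransferases. Type I interferon acts through a complex that holds STAT2 and IRF9 and binds the interferon-stimulated response element (ISRE), a repeat of GAAA with a spacer of 2 bases, in the promoters of antiviral genes.

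The vehicle list held 39564 peaks over 36.4 Mb and the curcumin list 49213 peaks over 42.3 Mb, and the median peak was 560 and 480 bp wide. The other 4 lists of the series held between 20354 and 41312 peaks. The lists carry no read totals, but whole fragment counts at the summit, the highest point of a peak, were recovered for 100% of the peaks of both lists from the fold enrichment and p. The median summit held 30 fragments with vehicle and 24 with curcumin over a genome background of 5.92 and 4.78 fragments. Fold enrichment is not normalised between libraries, so peaks were ranked within their own list. The strongest peak within 1 kb of any coding TSS received a rank from 0 (no peak) to 100 (highest fold enrichment among the promoters of that library). The height of a peak was also given as its summit fragments in multiples of the library background. The width given for a promoter peak is the summed width of all peaks that overlap any promoter window of the gene. It can therefore hold more than 1 peak. Over all promoters the median height with curcumin was 1.24 times that with vehicle, a shift of 0.32 on the log2 scale, and height ratios are given relative to this median. The mark on the Hoxa cluster, which the NUP98-HOXD13 fusion is known to keep active, was looked up as a check of the model after its values were seen. A single peak covered Hoxa7 and Hoxa9 in both libraries, with 273 fragments and 20333 bp with vehicle and 271 fragments and 17253 bp with curcumin. Hoxa10, in the same cluster, had a promoter peak with vehicle alone, of 67 fragments over 3410 bp.

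The GFI1 locus and its close relatives were examined first. At Gfi1 itself, where the peak lies over the locus that carries the human cDNA, 66 fragments were found at the summit with vehicle and 96 with curcumin. The height ratio was 1.45 (95% interval 1.05 to 2.01), and the peak was 3038 bp wide with vehicle and 4773 bp with curcumin. Gfi1b, the paralogue that acts in erythroid and megakaryocytic cells, had 36 and 32 fragments, and the interval of its ratio of 0.885 included no difference (0.532 to 1.47). Kit, the stem cell factor receptor of progenitors and mast cells, had 34 fragments with vehicle and 56 with curcumin, a ratio of 1.64 (1.05 to 2.59).

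The DNA under some of the largest differences is given here before the values. In the promoters of the interferon-stimulated genes Trim30a, Slfn8, Ddx60 and Rsad2, capitals mark each match to GAAANNGAAA on either strand. These are RefSeq promoters of GRCm38, from 250 bases before to 50 bases after the gene start, written in the direction of transcription. They were picked from the 8 listed promoters that hold the element and whose peak was at least 20 points lower with curcumin. Trim30a lies at chr7:104465144-104465443 on the minus strand, Slfn8 at chr11:83020761-83021060 on the minus strand, Ddx60 at chr8:61927837-61928136 on the plus strand and Rsad2 at chr12:26456403-26456702 on the minus strand.
Trim30a: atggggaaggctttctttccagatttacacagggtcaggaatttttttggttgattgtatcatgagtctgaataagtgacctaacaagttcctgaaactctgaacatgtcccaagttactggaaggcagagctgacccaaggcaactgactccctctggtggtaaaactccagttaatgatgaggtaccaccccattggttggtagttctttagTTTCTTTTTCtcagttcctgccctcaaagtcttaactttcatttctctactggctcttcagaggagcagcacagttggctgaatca
Slfn8: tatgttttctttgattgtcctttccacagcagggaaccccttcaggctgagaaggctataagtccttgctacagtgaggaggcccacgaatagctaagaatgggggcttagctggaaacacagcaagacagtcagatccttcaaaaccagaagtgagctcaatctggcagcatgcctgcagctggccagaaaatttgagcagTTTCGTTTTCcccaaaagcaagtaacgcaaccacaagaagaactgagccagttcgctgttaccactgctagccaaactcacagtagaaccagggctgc
Ddx60: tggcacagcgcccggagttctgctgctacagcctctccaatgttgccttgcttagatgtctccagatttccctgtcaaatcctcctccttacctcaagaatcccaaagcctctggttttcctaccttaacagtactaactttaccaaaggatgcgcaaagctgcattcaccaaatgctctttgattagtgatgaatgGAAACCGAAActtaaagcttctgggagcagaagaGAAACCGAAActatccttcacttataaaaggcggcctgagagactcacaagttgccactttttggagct
Rsad2: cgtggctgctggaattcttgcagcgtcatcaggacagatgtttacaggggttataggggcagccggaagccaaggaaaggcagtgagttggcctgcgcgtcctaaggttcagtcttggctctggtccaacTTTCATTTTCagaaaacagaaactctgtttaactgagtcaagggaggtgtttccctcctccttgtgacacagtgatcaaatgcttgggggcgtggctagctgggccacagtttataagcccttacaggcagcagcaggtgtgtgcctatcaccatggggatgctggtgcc

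Away from promoters, 1 site that was much weaker with curcumin and 1 site found with curcumin alone are shown as 300 bases around the peak summit, read from the plus strand of GRCm38. The window in an intron of Prkcb, a protein kinase C gene of B and myeloid cells, lies at chr7:122296573-122296872, and its capitals mark GAAANNGAAA. The window near Pkig, which encodes a protein kinase A inhibitor, lies at chr2:163655811-163656110. In the Pkig window, capitals mark AGATAA on either strand, the core bound by GATA factors. Both sites were picked because their windows hold the marked letters, and strongly changed sites without them were passed over. GAAANNGAAA was found in 6.87% of all shared distal sites and AGATAA in 16.3% of all distal sites with a curcumin peak alone.
Prkcb: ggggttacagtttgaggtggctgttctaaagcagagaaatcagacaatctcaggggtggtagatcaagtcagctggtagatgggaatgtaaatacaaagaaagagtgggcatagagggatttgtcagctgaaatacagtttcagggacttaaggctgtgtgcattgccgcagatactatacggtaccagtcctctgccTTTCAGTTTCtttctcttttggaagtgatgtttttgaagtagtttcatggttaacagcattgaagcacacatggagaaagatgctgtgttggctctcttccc
Pkig: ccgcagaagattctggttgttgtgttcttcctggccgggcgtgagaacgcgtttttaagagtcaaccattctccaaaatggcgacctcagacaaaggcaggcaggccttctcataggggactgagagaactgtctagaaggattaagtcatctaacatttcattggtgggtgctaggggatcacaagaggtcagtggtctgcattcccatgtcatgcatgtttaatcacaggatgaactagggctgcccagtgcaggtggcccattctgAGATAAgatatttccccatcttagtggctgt

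Promoters of interferon-stimulated genes formed the list with the lowest median change when promoters were ranked among promoters. Of 60 listed genes, 58 matched the annotation and 54 had a promoter peak in at least 1 library. With curcumin 50 of these ranked lower and 4 higher, and 23 were lower by 20 points or more, against 3.01% of all 12022 promoters with a peak. No member was higher by 20 points or more, against 4.82% of all promoters. The median rank of the list was 53.8 with vehicle and 22.8 with curcumin, and the median change was −18.9 points, against 1.89 over all promoters. Ranked among all peaks of the library instead, the median change was −7.48, against 2.58 over all promoters, and the NK-cell list of 8 genes was then lower, at −21.7. In bulk marrow, fewer cells of a type and less acetylation per cell cannot be told apart. The median change of the interferon list was −21.0 in the GFI1-KD pair and −18.7 in the GFI1-36S pair as labelled. Over all promoters it was −2.34 and −6.61 in these pairs. For GFI1-36S the file names and the labels give opposite treatments, and the labels were followed.

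**Figure D1:**
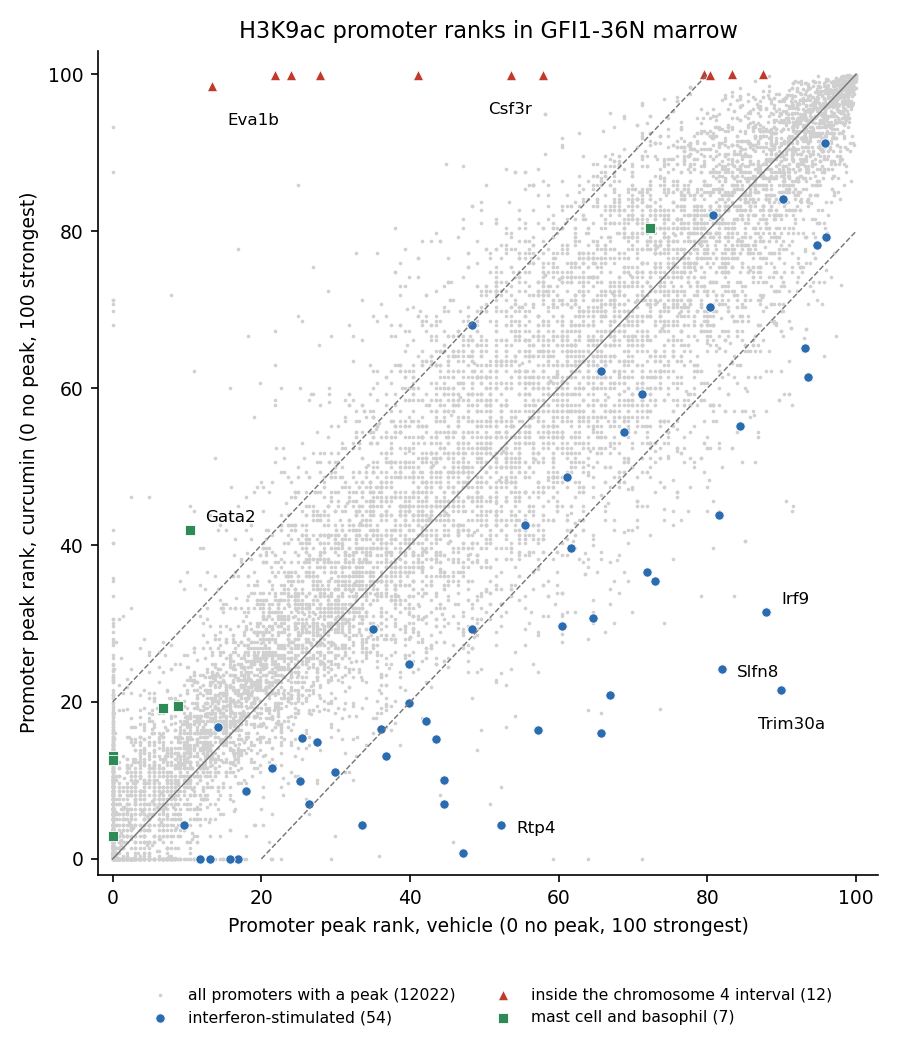
Rank of the strongest promoter peak with vehicle (x axis) and with curcumin (y axis) for 12022 promoters, where 0 is no peak and 100 the strongest; the dashed lines lie 20 points from equality. Of the 54 interferon-stimulated genes (blue) 50 lie below the diagonal, the 7 mast cell and basophil genes (green) lie above it, and the 12 promoters inside a chromosome 4 interval (red) lie at ranks of 98.5 or more with curcumin.

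The largest fall in rank of all promoters with a peak in both libraries was found at Trim30a, a regulator of innate immune signalling. Its summit held 199 fragments with vehicle and 62 with curcumin, its rank was 89.9 and 21.5, and its peak was 3397 and 1450 bp wide. The height ratio was 0.310 (0.229 to 0.414). Its neighbour Trim30d, which was not on the list, had 146 and 53 fragments. Slfn8, a member of the Schlafen family, had 177 fragments at rank 82.0 with vehicle and 70 fragments at rank 24.2 with curcumin. Irf9, the DNA-binding part of the interferon-activated complex, had 193 fragments with vehicle and 88 with curcumin, a ratio of 0.454 (0.349 to 0.587). Xaf1, a pro-apoptotic interferon target, had 146 and 46 fragments at ranks 65.7 and 16.0. Rtp4, an interferon-induced chaperone, had 124 fragments with vehicle and 21 with curcumin, the lowest ratio of these genes at 0.169 (0.101 to 0.269). Irf5, a transcription factor of the same family as Irf9 that was not on the list, had 205 and 112 fragments at ranks 91.3 and 44.4. Of the 10 largest falls among promoters with a peak in both libraries, 7 were thus at these genes. Trim30a, Slfn8, Irf9, Xaf1 and Rtp4 were on the list, and Trim30d and Irf5 were not. The other 3 were at Hist1h1d, a linker histone gene (159 and 72 fragments), Tut4, an RNA uridylyltransferase gene (181 and 92 fragments), and Lin28b, which blocks let-7 maturation (206 and 113 fragments). Ranked among all peaks, 9 of these 10 promoters fell by less than 20 points, from 10.3 at Lin28b to 18.4 at Trim30a, and Rtp4 stayed past 20 points. The fall at Hist1h1d depends on the window, since within 3 kb of the TSS the promoter ranked 4.30 points higher with curcumin.

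Among the antiviral effectors, which were picked for display after their values were seen, the same direction was found at enzymes, GTPases and sensors that act on viral RNA or particles. Oas2, an oligoadenylate synthetase, had 116 fragments with vehicle and 16 with curcumin. Mx1, a GTPase that restricts influenza viruses, had 112 and 25 fragments. Usp18, which removes ISG15 from proteins and limits receptor signalling, had 148 and 60 fragments, and Isg15 itself had 98 and 55. The RNA sensor Ifih1 had 176 fragments with vehicle and 111 with curcumin. Ifi44, Oasl1, Oas1g and Phf11b had a peak with vehicle alone, with between 41 and 55 fragments, and no listed gene had a peak with curcumin alone. Of all promoters, 1.84% had a peak in the vehicle library alone and 5.73% in the curcumin library alone.

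Members that ranked higher with curcumin included Gbp3, a guanylate-binding protein gene, Parp9 and Dtx3l. Gbp3 had 48 fragments in both libraries. Parp9 and Dtx3l share 1 peak over a common promoter, with 174 and 173 fragments. In multiples of the library background, before centring on all promoters, 37 of the 50 genes with a peak in both libraries were lower with curcumin and 13 were higher. After centring 49 of the 50 were lower. Stat2, which encodes a component of the interferon-activated complex, had 129 fragments with vehicle and 109 with curcumin, and its rank was 12.9 points lower. The median height of the list was 21.4 times the background with vehicle and 16.2 times with curcumin, while that of all promoters was 20.5 and 25.5 times.

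**Figure D2:**
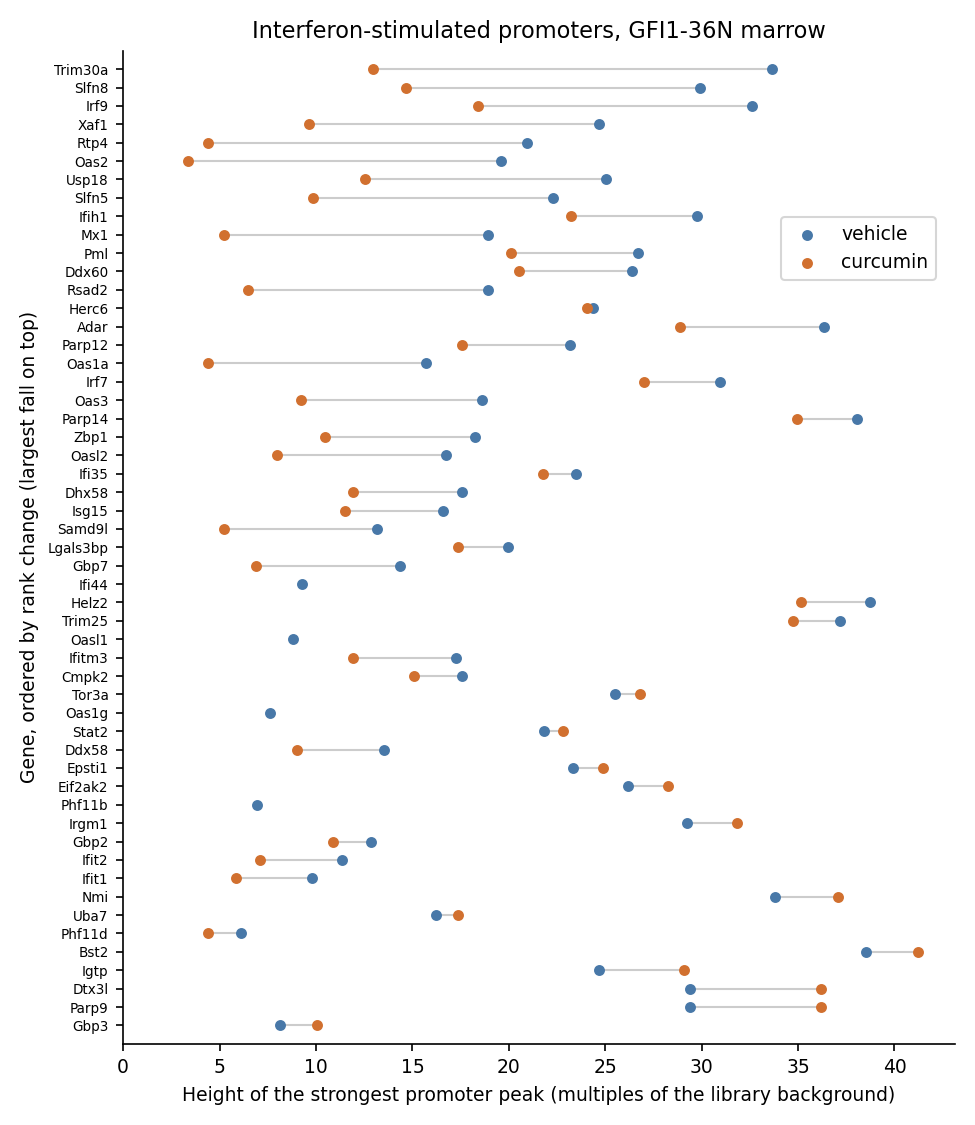
Height of the strongest promoter peak of 53 interferon-stimulated genes, in multiples of the library background, with vehicle (blue) and curcumin (orange), ordered by rank change; genes with a blue point alone had no curcumin peak. The heights range from 6.09 to 38.7 with vehicle, and the gap is widest at Trim30a on top, where the vehicle point lies to the right.

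Width, which does not use fold enrichment and is summed over the peaks of a promoter, differed in the same direction. Of the 50 interferon-stimulated promoters with a peak in both libraries, 47 had a narrower peak with curcumin and 3 a wider one, and the median width ratio was 0.577, against 1.05 over all promoters. The peak was narrower by 2 times or more at 17, against 1.49% of all promoters. Over the whole genome the promoters that narrowed most included those of Ifi211 (3163 to 178 bp), Ifi27l2a (2727 to 302 bp), Cmah (1532 to 201 bp) and Ifi203 (2479 to 334 bp). Ifi211 and Ifi203 belong to the Ifi200 cluster of DNA sensors on chromosome 1 and Ifi27l2a is an interferon-induced mitochondrial protein gene.

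The letters of the ISRE were found in many of these promoters. A RefSeq promoter could be matched for 44 of the 54 genes, and GAAANNGAAA was present in 22 of them (50%), against 377 of 9437 promoters with a peak (3.99%). The median change was −14.2 points for the 22 genes with the letters and −18.0 for the 22 without them, and 21 genes of each set ranked lower with curcumin. Among all promoters the letters were found in 22 of 291 that were lower by 20 points or more (7.56%) and in 12 of 447 that were higher by as much (2.68%). A match describes the sequence and does not show binding.

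Lists of antigen presentation and of the inflammatory response had medians below 0 but closer to it, where 39.9% of all promoters ranked lower. In the list of MHC class I presentation, 13 of 20 genes ranked lower with a median of −5.56, which was 0.141 when promoters were ranked among all peaks. B2m, the light chain of class I molecules, had 258 fragments with vehicle and 185 with curcumin. H2-M3, a nonclassical class I gene, had 140 and 104, and was the 1 member that was lower by 20 points or more. Tapbpl, a peptide editor, had 149 and 189 fragments and was higher by as much. For MHC class II, whose genes were weak in both libraries with a median rank of 8.72 and 8.96, 7 of 10 ranked lower with a median change of −3.63. Cd74 and H2-Eb1 had a peak with vehicle alone, of 33 and 28 fragments.

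The immediate early and AP-1 genes, which respond within minutes to growth factors and stress, had a median change of −4.81 with 22 of 30 lower. Of these, 7 were lower and 2 higher by 20 points or more, against 3.01% and 4.82% of all promoters. Fos had 176 fragments with vehicle and 111 with curcumin, Atf3 had 148 and 90, Fosb 162 and 112, and Btg2, an antiproliferative gene, 226 and 142. The opposite was found at Ier3 (106 and 163 fragments) and Myc (123 and 160 fragments). Of the 37 NF-kB pathway genes 25 ranked lower, with a median of −4.71, but none by 20 points or more. Nfkbia, the inhibitor that holds NF-kB in the cytoplasm, had 151 fragments with vehicle and 209 with curcumin, a ratio of 1.38 (1.11 to 1.71), and was the 1 member higher by 20 points or more.

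Markers of the cell types in marrow were compared to describe what moved beside these genes. The monocyte and macrophage list had a median rank of 22.5 with vehicle and 16.0 with curcumin. Of its 20 genes 16 ranked lower with a median of −5.28, against 39.9% and 1.89 over all promoters. Klf4, a monocyte transcription factor, had 164 fragments with vehicle and 110 with curcumin. Csf1r, the receptor for M-CSF, had 109 and 63, and its ratio was 0.575 (0.415 to 0.792). Ccr2, which draws monocytes from the marrow, had 88 and 33 fragments at a ratio of 0.373, and its peak was 5765 and 1615 bp wide. Irf8 had 153 and 135 fragments. Vcam1, an adhesion molecule of marrow macrophages and stroma, had 77 fragments with curcumin and no peak with vehicle. Mertk, a receptor for the uptake of dying cells, also had a peak with curcumin alone, of 24 fragments, and Cd14 (83 and 89 fragments) and Fcgr4 (37 and 32 fragments) ranked 3.05 and 1.30 points higher. The part of these cells in the difference at interferon-stimulated promoters was not tested. Lymphoid lists were weak in both libraries, with median ranks with vehicle of 5.61 for T cells, 1.88 for B cells and 4.25 for NK cells. Zap70, Cd3d, Bcl11b and Il7r had a T-cell peak with vehicle alone, of 38, 28, 26 and 23 fragments, and Tbx21 (38 fragments) and Klrg1 (25 fragments) had an NK-cell peak with vehicle alone. In the same lists Cd247 and Cd6 had a T-cell peak with curcumin alone, of 24 and 19 fragments, and Lat (33 and 45 fragments) and Nkg7 (27 and 43 fragments) ranked 7.27 and 9.99 points higher. Of the 13 T-cell, 7 B-cell and 8 NK-cell genes with a peak, 6, 3 and 2 ranked higher with curcumin, and the median changes were −0.12, −0.43 and −3.19.

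**Figure D3:**
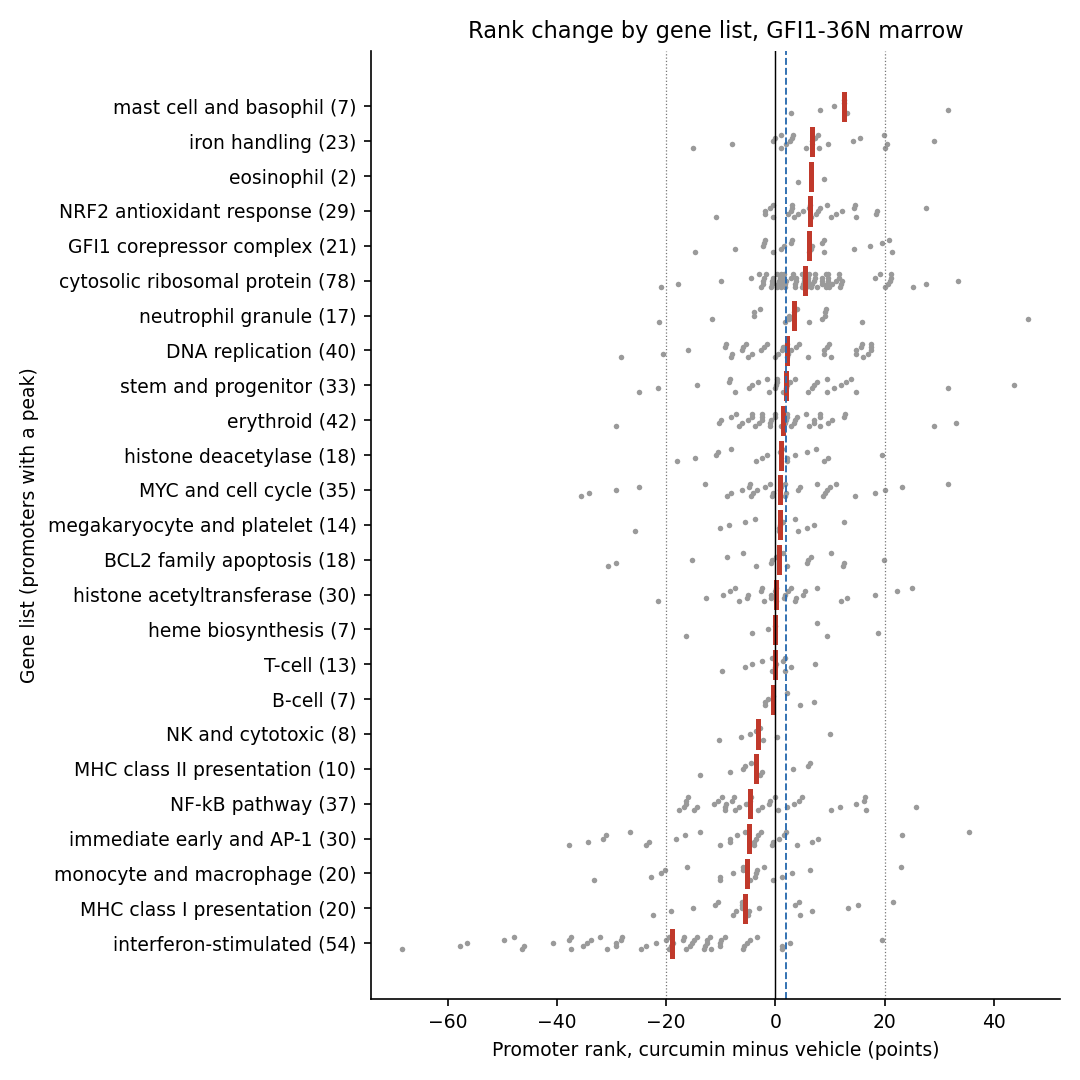
Change in promoter rank (curcumin minus vehicle, in points) for each gene (grey) of 25 lists, with the list median in red, the number of promoters with a peak in brackets and the median of all promoters as a dashed line. The list medians run from −18.9 for the interferon-stimulated genes to 12.5 for the mast cell and basophil genes.

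Mast cell and basophil genes stood at the other end. Of 12 names 7 had a promoter peak, and all 7 ranked higher with curcumin, against 60.1% of all promoters. The median change was 12.5, against 1.89 over all promoters. Gata2, which is required for mast cells and for stem cells, had 38 fragments with vehicle and 108 with curcumin. Its summed peak width was 1555 and 8900 bp. Its height ratio was 2.83 (1.94 to 4.21), and it was the 1 member past 20 points, against 4.82% of all promoters. Hdc, which makes histamine, had 30 and 55 fragments, a ratio of 1.82 (1.15 to 2.95). Il1rl1, the receptor for IL-33, Ms4a2, the beta chain of the IgE receptor, and Fcer1a, its alpha chain, had a peak with curcumin alone, of 38, 42 and 19 fragments. Of all promoters, 5.73% had a peak with curcumin alone and 1.84% with vehicle alone. A promoter without a vehicle peak can only rank higher, and the list was weak with vehicle, at a median rank of 6.73. Srgn, the proteoglycan core of granules, had 157 and 170 fragments, which is a ratio of 1.08. Of the distal sites nearest to these genes, 21 had a curcumin peak alone and 0 a vehicle peak alone. Over all genes, vehicle sites made up 32.5% of the distal sites found in 1 library. AGATAA was held by 4 of the 21 windows, against 16.3% of all distal sites with a curcumin peak alone. Of the 9 eosinophil genes 2 had a peak, with a median change of 6.46, and at Siglecf the summit held 20 and 30 fragments. The mast cell and basophil median was −10.3 over 5 genes in the GFI1-KD pair and −33.4 over 5 genes in the GFI1-36S pair as labelled. Over all promoters the medians of these pairs were −2.34 and −6.61.

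The progenitor, neutrophil and erythroid lists moved less as groups, with differences at single regulators. Of 33 stem and progenitor genes with a peak 21 ranked higher (63.6%), against 60.1% of all promoters. The median change was 1.98, against 1.89 over all promoters. Myb, which keeps progenitors cycling, had 118 fragments with vehicle and 188 with curcumin at ranks 44.8 and 88.6, a ratio of 1.59 (1.25 to 2.01). Erg had 132 and 155 fragments. Runx1, which drives definitive haematopoiesis, had 174 and 130 fragments, although its summed peak width was 6468 bp with vehicle and 9395 bp with curcumin. Hoxa10 and Meis1, partners of Hoxa9 in leukaemia, had a promoter peak with vehicle alone, of 67 and 49 fragments. Of 17 neutrophil granule genes 12 ranked higher (70.6%) with a median of 3.50. Cebpe, the regulator of late granules, had 61 and 95 fragments (ratio 1.55, 1.11 to 2.17), Elane, which encodes neutrophil elastase, had 30 and 46, and Lyz2, the lysozyme of neutrophils and macrophages, had 117 and 76. Of 42 erythroid genes 22 ranked higher (52.4%), a lower share than over all promoters, with a median of 1.40. Klf1, the erythroid master regulator, had 97 fragments with vehicle and 149 with curcumin (ratio 1.53, with a lower limit of 1.18), whereas the membrane genes Slc4a1 and Aqp1 had a peak with vehicle alone, of 37 and 38 fragments.

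Among metabolic and housekeeping lists, 19 of 23 iron genes ranked higher with a median of 6.74. Tfrc, the transferrin receptor, had 110 and 156 fragments, Fth1, the ferritin heavy chain, had 157 and 201, and Slc40a1, the iron exporter ferroportin, had 59 fragments with curcumin and no peak with vehicle. Of the 29 NRF2 target genes, which make antioxidant enzymes, 23 ranked higher with a median of 6.33. Tkt, an enzyme of the pentose phosphate pathway, had 117 and 161 fragments, and Gsr, which regenerates glutathione, had 157 and 196. Of the 78 ribosomal protein genes 64 ranked higher with a median of 5.44. By 20 points or more, 8 were higher and 1 was lower, against 4.82% and 3.01% of all promoters. Rpl23a had 127 and 185 fragments and Rps20 had 155 and 220. All promoters together ranked higher in 60.1% of cases, against 82.6%, 79.3% and 82.1% in these 3 lists.

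The genes of the acetylation machinery itself were close to the background. The median change was 0.10 for 30 histone acetyltransferase genes and 1.01 for 18 deacetylase genes. Kat2a, which encodes GCN5, had 88 fragments with vehicle and 131 with curcumin (ratio 1.48, 1.12 to 1.96), and Crebbp had 158 and 197. Naa60 had 183 and 140. For the complexes that GFI1 recruits, 15 of 21 genes ranked higher with a median of 6.08, against 60.1% and 1.89 over all promoters. Rcor3, a corepressor gene, was among those higher by 20 points or more (110 and 143 fragments), and Hdac1, with 141 and 118, had the largest difference in the other direction. The lists for MYC and cell cycle, DNA replication, BCL2 family, heme biosynthesis and megakaryocytes had medians between −0.10 and 2.17. By 20 points or more, 3 of 35 MYC and cell cycle genes were higher and 4 lower. The counts were 0 and 2 of 40 replication, 0 and 2 of 18 BCL2 family, 0 and 1 of 14 megakaryocyte and 0 and 0 of 7 heme genes. Over all promoters the shares were 4.82% and 3.01%. The lower genes included the cell cycle genes Ccnd3 (172 and 112 fragments) and Cdkn1a (184 and 122) and the pro-apoptotic gene Bbc3 (140 and 88). The higher ones included E2f3 (160 and 192 fragments).

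Over all genes, 579 promoters were higher and 362 lower by 20 points or more, and 90% of changes lay between −16.4 and 19.7 points. With a peak in both libraries, the median height ratio, which comes from the same fold enrichment as the rank, was 1.37 for the higher promoters and 0.711 for the lower ones. Apart from genes of the chromosome 4 interval described next, the largest rises among promoters with a peak in both libraries were at Urb2, Mus81, Map3k12, Chd3 and Slc37a3. Urb2, a ribosome biogenesis gene, had 32 fragments with vehicle and 155 with curcumin, a ratio of 4.82 (3.28 to 7.29). Its curcumin peak matches that of Taf5l in fragments, width (3190 bp) and rank (71.9). Taf5l had 120 fragments over 3527 bp with vehicle, a ratio of 1.29 (1.01 to 1.65). The size of the rise at Urb2 thus depends on which peak reaches its 1 kb window. Mus81, a DNA repair nuclease gene, had 75 and 181, Map3k12, a stress kinase gene, 55 and 165, and Chd3, a remodelling ATPase of the NuRD complex, 39 and 139. Slc37a3 had 79 and 161 fragments. Within 3 kb of the TSS the rise at Mus81 was 2.76 points, and the width ratio was 1.15 at Map3k12 and 0.904 at Urb2. Ranked among all peaks, the rises at Mus81 and Slc37a3 were 19.4 and 16.2 points.

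The promoter peak was wider by 2 times or more at 352 promoters with a peak in both libraries (3.17%), of which 340 were left without the chromosome 4 interval. Of the 5 promoters that widened most, 4 lay in that interval. The other was Hoxb7, a homeobox gene of progenitors, whose peak was 442 bp wide with vehicle and 7123 bp with curcumin, at 23 and 115 fragments. The ratio was 4.98 (3.16 to 8.16). Peaks of at least 4 kb numbered 503 with vehicle and 661 with curcumin in the whole lists.

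Promoters with a peak in 1 library were mostly weak, with a median rank of 3.61 for the 221 found with vehicle alone and 5.07 for the 689 found with curcumin alone. Of the first, 155 had a peak in at least 1 of the other 4 libraries, and of the second 481. With no peak of the other library within 3 kb, the strongest vehicle peak was at Esr1, the oestrogen receptor alpha gene, with 135 fragments at rank 59.2. It was followed by Ifi213, another gene of the Ifi200 cluster (84 fragments), Zfp938 (70), Slc25a43 (80) and Lpcat2, a lipid mediator enzyme gene (58). The strongest curcumin peak was at Ppp6r1, a regulatory subunit of protein phosphatase 6, with 185 fragments over 8030 bp, and all 4 other libraries also had a peak there. It was followed by 3830406C13Rik and Gm49355, which share a peak of 154 fragments, Myef2 (151) and Gsto2, a glutathione transferase gene (108). Myef2 and Gsto2 too had a peak in all 4 other libraries, whereas Esr1 and Ifi213 had one in 1 other library.

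One interval of chromosome 4 differed from the rest of the genome. Within chr4:125000001-126200000 of mm10, 1.2 Mb with 15 coding genes, the curcumin list had 587 peaks that covered 84.8% of the bases, and the vehicle list had 48 peaks that covered 3.40%. The interval was noticed in the data and bounded by bins of 50 kb. In the other 4 libraries 0.921% to 3.72% of it was covered. Coverage with curcumin was between 53.6% and 98.7% in each of the 24 bins, of which 16 held no vehicle peak. In the 500 kb on either side, 5.62% and 4.70% of the bases were covered with curcumin and 5.30% and 5.52% with vehicle. Elsewhere in the curcumin list 2 bins, both on chromosome 15, were covered to 50% or more, and the vehicle list had 0 such bins.

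**Figure D4:**
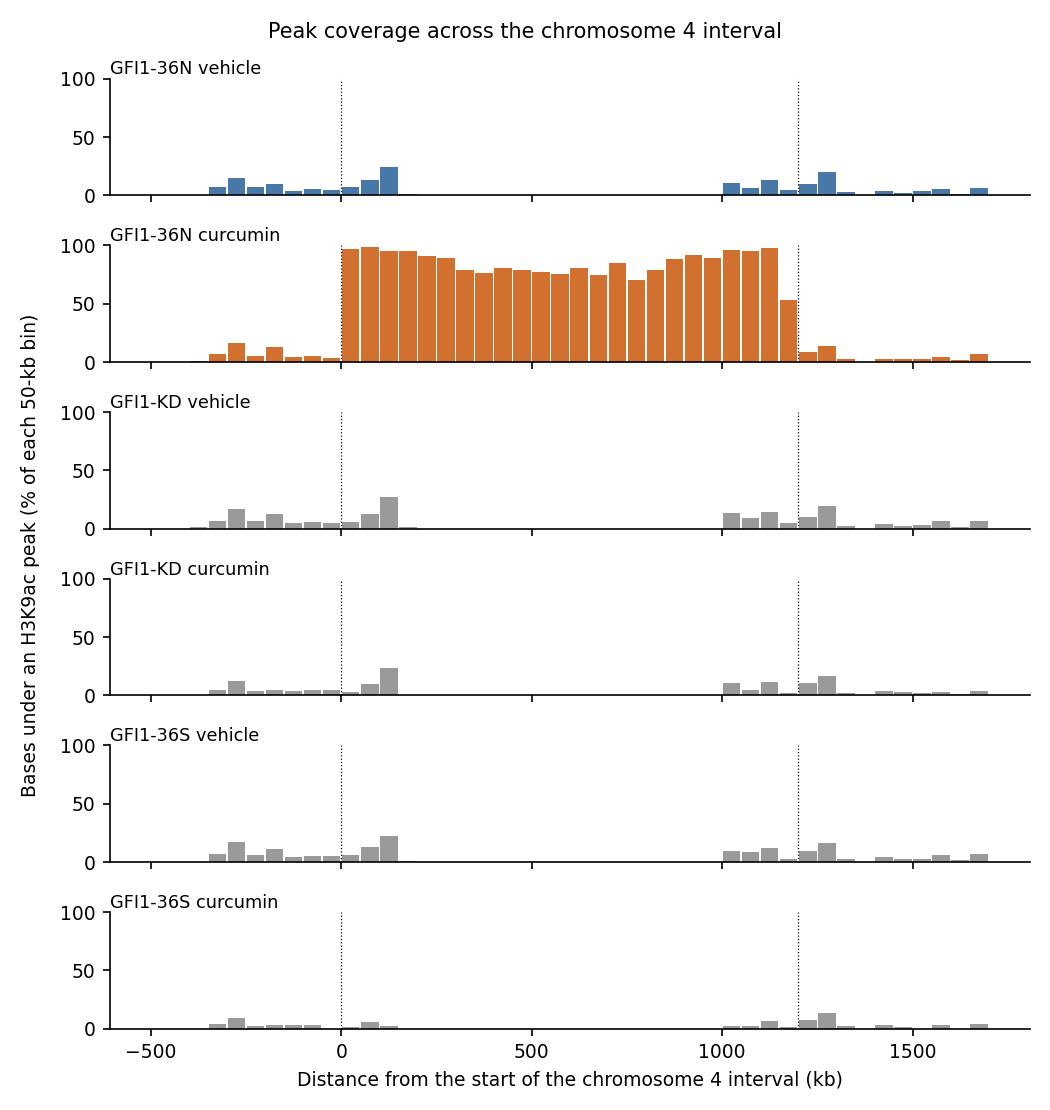
Share of each 50-kb bin covered by H3K9ac peaks (y axis, percent) against the distance from the start of the chromosome 4 interval (x axis, kb) in the 6 libraries; dotted lines mark its ends. The curcumin-treated GFI1-36N library is covered to 53.6% or more in every bin between the lines and returns to the level of the others outside them.

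The interval holds Csf3r, the G-CSF receptor of neutrophils, whose promoter summit had 126 fragments with vehicle and 325 with curcumin. Its ratio was 2.57 (2.08 to 3.18), the peak was 2710 and 22770 bp wide, and 9.81% and 98.2% of the gene was covered. Zc3h12a, an RNase that degrades inflammatory mRNAs, had 192 and 339 fragments and a peak of 2047 and 16771 bp. Gnl2, a nucleolar GTPase gene, had 180 and 340 fragments, and its peak had a fold enrichment of 59.0, the highest of any peak in the 6 lists. Dnali1, an axonemal dynein chain gene, lay under the widest peak of the curcumin list, 33273 bp against 2702 bp with vehicle. The rises at Eva1b (46 and 240 fragments), Meaf6 (68 and 306), Oscp1 (73 and 329), Sh3d21 (81 and 331) and Mrps15 (106 and 329) were among the 10 largest at promoters with a peak in both libraries. Lsm10 (133 and 314) and Stk40 (173 and 317) were inside it as well.

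The rise was not uniform over these 12 promoters. Vehicle summits ranged from 46 to 192 fragments and curcumin summits from 240 to 340, so that the ratios ran from 1.76 to 5.19. Grik3, a glutamate receptor gene known from neurons, had no promoter peak in either library, although 77.4% of the gene was covered with curcumin and 0% with vehicle. At the edges, the promoters of Rspo1 (40 and 22 fragments) and Thrap3 (194 and 167 fragments) were not higher with curcumin. The copy number of this DNA was not measured here, and copy number and acetylation cannot be told apart from the peaks. Csf3r was the 1 neutrophil gene higher by 20 points or more, and without the interval the median change of that list was 2.98 over 16 genes. Of the 579 promoters higher by 20 points or more 9 lay in the interval.

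Distal sites, over 1 kb from every coding TSS, differed more than promoters did. Of 40432 merged sites 16800 were shared, 7535 had a peak with vehicle alone (18.6%) and 16097 with curcumin alone (39.8%). Vehicle sites thus made up 31.9% of the sites found in 1 library (Wilson 95% interval 31.3% to 32.5%), and 32.7% without the chromosome 4 interval, which held 564 of the curcumin sites. With equal numbers of top peaks in both lists the share was 49.4%. Most of these sites were weak, with median widths of 277 bp with vehicle and 269 bp with curcumin. Ranks of 80 or more among the distal sites of the library were reached by 62 vehicle sites and 629 curcumin sites, 535 of them outside the interval. Among shared sites 21.3% were higher and 12.1% lower by 20 points or more, with a median change of 2.29.

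Sites found in 1 library lay in introns more often than shared sites did. Introns of coding genes held 61.7% of the vehicle sites, 52.0% of the curcumin sites and 44.4% of the shared sites, and intergenic DNA held 26.0%, 34.2% and 36.8%. A peak in at least 1 of the other 4 libraries was present at 53.5% of the vehicle sites and 43.2% of the curcumin sites, against 91.5% of the shared sites. No peak of the other library lay within 1 kb of 4568 vehicle sites and 11381 curcumin sites.

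The strongest of these separate vehicle sites were found near Zscan22 and Zfp330, both zinc finger genes. The Zscan22 site, in an exon of the gene, had 82 fragments, and the Zfp330 site 78. Next came 2 sites within 1 kb of a noncoding TSS near Tmem47 (67 and 64 fragments) and intergenic sites nearest to Usp46 (64), Eef2kmt (56) and Pmaip1 (54). Rem1 had an exonic site of 54 fragments that was in no other library. The strongest curcumin site lay between genes at chr12:50806608-50809551, 159 kb from the TSS of Prkd1, with 121 fragments over 2944 bp, and no other library had a peak there. Outside the interval it was followed by sites nearest to Mpp7 (117 fragments), Vps8 (113), Smoc1 (100), Pkig (86), Hpcal1 (85), Rasal2 (84) and Ifne (83). The Vps8 and Hpcal1 sites had a peak in all 4 other libraries.

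Among shared distal sites the 8 largest falls in rank lay near genes of different kinds. The intron of Ube2l6, which encodes the enzyme that conjugates ISG15, had 42 fragments with vehicle and 15 with curcumin, a ratio of 0.402 (0.207 to 0.740). The site in Prkcb whose sequence is printed with the promoters had 53 and 19 fragments, a ratio of 0.403 (0.225 to 0.693). An intron of Mef2c, a transcription factor of lymphoid and monocytic cells, had 40 and 15. The others were nearest to Gm12248 (50 and 15), Rbfox1 (39 and 18), Grxcr1 (43 and 18), Trit1 (37 and 14) and Ccdc8 (59 and 17). The largest rises were at Rspo1 (20 and 156) and Csf3r (19 and 62) in the interval, and elsewhere at Tnrc6b, where the nearest TSS was that of Adsl (20 and 44), Trim14 (18 and 47), Klrb1b (27 and 41), Tomm20l (19 and 36), Prrc2b (20 and 44) and Dmrtb1 (23 and 43).

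Distal sites were then assigned to the nearest coding TSS within 100 kb. The largest number of vehicle sites, 16 with 0 curcumin sites, lay nearest to Stard3nl, which borders the T-cell receptor gamma locus. Over that locus, chr13:19178024-19352756, the vehicle list had 18 peaks covering 11.3 kb and the curcumin list 5 peaks covering 2.19 kb, and between 0 and 17.1 kb were covered in the other 4 libraries. Ankrd11, Foxp1, Notch2 and Zmiz1 each had 13 vehicle sites, with 16, 21, 7 and 12 curcumin sites. The largest numbers of curcumin sites were at Grik3 (161), Csf3r (31) and Zc3h12a (27) of the interval, all with 0 vehicle sites. Outside it, Mpp7 had 33 curcumin sites and 1 vehicle site, Prex1 25 and 10, Ahi1, the neighbour of Myb, 24 and 3, and Gse1, a cofactor of the LSD1 complex, 23 and 0.

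By list, the distal sites were split like the promoters near interferon-stimulated and mast cell genes, but not in every list. Near interferon-stimulated genes 36 vehicle and 20 curcumin sites were found, so that vehicle sites made up 64.3%, against 32.5% over all genes. The NK-cell list had 16 and 7, a higher vehicle share of 69.6%, and the monocyte list 35 and 28. The histone acetyltransferase list had 22 and 22 (50%) and the erythroid list 48 and 51 (48.5%), although their median promoter changes were 0.10 and 1.40. Near stem and progenitor genes 52 vehicle and 100 curcumin sites were found, near NRF2 targets 14 and 61, and near neutrophil genes 13 and 53, of which Csf3r held 31. Single listed genes that were picked after their values were seen had almost all their separate sites in 1 library. Cdk6, a cell cycle kinase gene of progenitors, had 0 vehicle and 14 curcumin sites, Erg 0 and 13, Etv6 1 and 12, Myb 0 and 9, and Mecom, which encodes EVI1, 0 and 7. In the other direction Cd44, an adhesion receptor gene, had 12 vehicle and 2 curcumin sites, Cx3cr1, the fractalkine receptor gene of monocytes, 7 and 1, Atf3 6 and 0, and Csf1r 5 and 1.

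Windows of 250 kb, also chosen after their values were seen, gave the covered bases of whole gene clusters. The covered length was 20.0 kb with vehicle and 5.17 kb with curcumin over the Ms4a genes on chromosome 19, whose members Ms4a7, Ms4a4a and Ms4a6c are known from monocytes and macrophages. It was 12.8 and 3.48 kb, and 10.7 and 3.47 kb, over 2 adjoining windows of the Ifi200 cluster, 14.5 and 6.65 kb over the Trim30 cluster, and 16.8 and 9.15 kb over the Slfn cluster. Apart from the chromosome 4 interval, the covered length was higher with curcumin around Gata2 (15.2 and 38.0 kb), Homer1 and Jmy (11.3 and 30.9 kb), Vcl and Adk (24.8 and 43.6 kb), Ahi1 and Myb (17.5 and 35.3 kb), the Hoxb cluster (10.9 and 26.3 kb), Etv6 (24.3 and 38.6 kb) and Gse1 (16.8 and 30.7 kb).

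Short sequence motifs were counted in the 300 bases around the summit of each distal site. AGATAA or its reverse complement was present in 16.3% of 16097 curcumin sites, 13.8% of 7535 vehicle sites and 13.4% of 16800 shared sites, and in 11.2% of all 32851 RefSeq promoters. Without the chromosome 4 interval the curcumin share was 16.5%. TTGCNNAA, the C/EBP core, was found in 13.3%, 10.9% and 12.3% of curcumin, vehicle and shared sites. GAGGAAGT, a PU.1 core, was found in 2.80%, 3.53% and 4.20%. The ISRE letters were found in 5.90%, 5.26% and 6.87% of the same sites, so they were not more frequent among vehicle sites. The GC content of the windows was 47.1%, 47.9% and 49.9%, which also bears on how often such letters occur, and its part in these shares was not tested.

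Chromosomes 6 and 15 had more curcumin sites than the others. The number of curcumin sites per vehicle site was 3.09 on chromosome 6 and 3.17 on chromosome 15, against 2.06 over the genome without the interval and 1.53 to 2.74 on the other chromosomes. Chromosome 6 holds Gata2 and Etv6, and chromosome 15 holds Map3k12. The median height ratio of promoters, which is 1 over all genes by construction, was 1.08 on chromosome 6 and 1.05 on chromosome 15, and 0.973 to 1.02 on the others. Their median rank changes were 4.81 and 4.61 points. Shared distal sites, centred on their own median, had a ratio of 1.06 on chromosome 6 and 1.0 on chromosome 15.

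**Figure D5:**
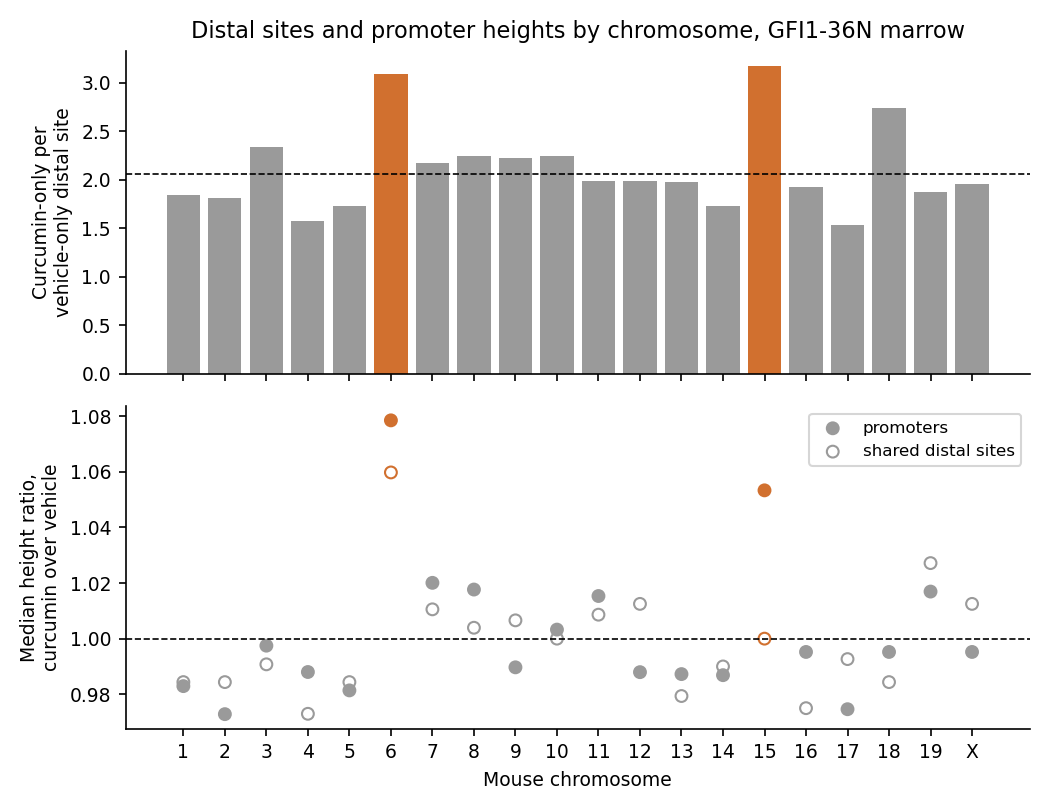
Number of curcumin-only distal sites per vehicle-only site by chromosome, without the chromosome 4 interval (upper panel), and median height ratio, curcumin over vehicle, of promoters and shared distal sites (lower panel, axis not from 0). Chromosomes 6 and 15 (orange) have the highest bars, at 3.09 and 3.17, against 2.06 over the genome (dashed).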

How the data were processed

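Peak lists of H3K9ac ChIP-seq libraries were analysed for the GFI1-36N pair, with the other 4 libraries as context. The input and rabbit IgG samples were not used here. The authors trimmed the reads with Trim Galore, mapped them to mm10 with BWA-MEM, called peaks with MACS2 and removed black list regions. For each peak the deposited lists give the fold enrichment (a ratio to local background), an integer score, the −log10 of p and of q and the other field that holds the summit offset. The control and threshold of the peak calling are not given in the sources used here. All peaks of the 6 lists lay within the GRCm38 chromosomes.

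TSSs of 21938 coding genes came from GENCODE release M21. Python 3.11.15, numpy 2.4.6, scipy 1.17.1, pandas 2.3.3 and pysam 0.24.0 were used. Summit fragments were recovered within 0.002 on the −log10 p scale. PCR copies were not told apart, so intervals cover counting error alone. Height ratios have exact binomial 95% intervals and shares have Wilson intervals. Promoter sequences came from RefSeq. Samples were grouped by their labels, and with 1 library per group no test was made. The members, the 25 gene lists with 720 names and the alternatives were chosen with earlier results of these data known.

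Genes were named by rule: Gfi1, Gfi1b and Kit, up to 4 members of each list with the largest change in each direction, the 10 largest rises and falls, the 5 strongest promoters of 1 library, the 5 largest changes in width, the 8 strongest or most changed distal sites of each kind and the 5 genes with most sites. Some predicted, listed and other genes and 1 site under this rule are not reported here. Genes outside it are marked, as are the effectors, windows and single genes picked later; Ddx60, Rsad2, Hoxa7, Hoxa9 and the genes of the chromosome 4 interval were likewise picked after their values were seen. The steps were tested on simulated data.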

Additional observations from a re-analysis of the deposited data

Results flagged for a closer look

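The mast cell and basophil list had medians of opposite sign in 2 genotypes. Its median change in promoter rank was 12.5 points in the GFI1-36N pair, with 7 of 7 genes higher with curcumin, and −10.3 points in the GFI1-KD pair, with 4 of 5 genes lower. In the GFI1-36N pair 3 of the 7 had no vehicle peak and could only rank higher. The list of complexes that GFI1 recruits also differed in sign, with a median change of 6.08 points in GFI1-36N and −5.20 points in GFI1-KD mice. The number of genes higher was 15 of 21 and 6 of 20. In the GFI1-36S pair as labelled, the medians of these lists were −33.4, with 0 of 5 genes higher, and −7.88, with 9 of 20 genes higher. Over all promoters the median change was 1.89 in the GFI1-36N pair, −2.34 in the GFI1-KD pair and −6.61 in the GFI1-36S pair. It thus differed in sign between GFI1-36N and GFI1-KD as well. Neither contrast between genotypes was tested, as there is 1 library per group, and the GFI1-36N pair also differs in the zygosity named in its lists.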

How the results depend on the processing

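With 1 library per group, no difference could be set against the spread between mice, and the median summit of 24 to 30 fragments limits weak sites to their presence. No paired analysis was possible because each group has 1 library and the labels give no replicate numbers. Of 1147 values computed under alternatives for 193 results, 1074 stayed inside the interval of the reported value, within 1.5 times of a count or on the same side of the 20-point or 2-fold limit, 47 moved outside, 18 no longer passed and 5 newly passed the limit, and 3 values past the limit changed direction. Of the 1074, 21 lay on the other side of no change, all of them list medians whose interval includes 0 or genes short of the limit.

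The vehicle share of promoters with a peak in 1 library, 24.3%, was 30.1% at a −log10 q of at least 5 and 35.5% with equal numbers of top peaks. The distal share of 31.9% was 36.8% and 49.4% under these settings, 31.3% with a 3 kb window, 33.4% with a stricter overlap, 28.6% with a gap of 1 kb and 32.7% without the chromosome 4 interval, a setting added after seeing the data. When ranked among all peaks, 929 promoters were higher by 20 points or more and the interferon median was −7.48, the smallest of its values, which reached −20.5. With peaks of −log10 q of at least 5 and with equal numbers of top peaks, 2236 and 2117 shared distal sites were higher by as much. The intronic share of vehicle sites was 57.0% at that q and 57.0% with 3 kb. That of curcumin sites was 47.0% at that q, 48.9% with equal numbers, 48.2% with 3 kb and 52.8% without the interval. The share of curcumin sites with AGATAA was 15.5% at that q. With 3 kb, Hist1h1d changed by 4.30 points with a width ratio of 1.05, and the width ratio of Urb2 was 0.904. The causes of these shifts were not tested.

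The list medians of mast cell and basophil (10.2 to 26.9), GFI1 corepressor (4.83 to 6.28), NRF2 (4.88 to 6.40), iron (3.25 to 6.80) and ribosomal protein genes (2.0 to 5.62) stayed above 0 in each alternative run, while that of all promoters ran from 1.01 to 2.58. The lowest ribosomal value, ranked among all peaks, was below the 2.58 of all promoters there. Those of monocyte (−6.78 to −1.48), immediate early (−6.02 to −0.900) and NF-kB genes (−5.51 to −0.443) stayed below 0, and those of MHC class I (−6.11 to 0.141), erythroid (−0.68 to 3.47) and MYC and cell cycle genes (−0.43 to 1.34) crossed it. Those of NK-cell and eosinophil genes ran from −21.7 to −1.53 and from 3.19 to 42.9.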
